A study of Mus musculus with 8 samples.

Results

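The T cell receptor signalling genes described here are 34 genes chosen by name: the CD3 chains, the kinases and adaptors that act next to the receptor, the enzymes and transcription factors downstream of them, and inhibitors of the pathway. They are 34 of the 29426 gene symbols in the deposited count table. Each of the 34 had a line there, and each was among the 12313 genes that passed the expression filter, so no gene was set aside for low counts. RNA had been sequenced from CD8+ T cells that were enriched on beads from mouse spleen and then sorted by flow cytometry with antibodies to CD8, CD4, CD44 and CD122. The 8 libraries form 4 groups of 2, from 2 genotype labels (WT, mCre) and 2 subset labels (TN, MP). The design text of the series writes VM for the second subset and Cre for the mCre animals, and the series title joins miR-29 and Cre; what TN, MP and VM stand for is not spelled out. Which allele the mCre animals carried, which promoter drove Cre, the strain, the age of the mice behind each library (the protocol names adult and neonatal spleens) and whether the 2 libraries of a group came from different animals are, in the sources used here, not given. Whether a TN and an MP library came from the same animal is not given either. The p-values below therefore measure the spread between libraries, which may be technical.

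An engaged T cell receptor signals through the CD3 chains, whose cytoplasmic tyrosines are phosphorylated by LCK and FYN and then bind the kinase ZAP-70. ZAP-70 phosphorylates the scaffolds LAT and SLP-76, which gather phospholipase C-gamma, VAV and Ras exchange factors; from there the signal splits into calcium and NFAT, Ras and MAP kinase, and NF-kB branches. Phosphatases, CSK, ubiquitin ligases, diacylglycerol kinases and receptors such as CD5 hold the pathway back. In CD8+ T cells that have not met foreign antigen, CD5 level is known as a readout of how strongly the receptor recognises self peptides.

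Total counts ran from 13479586 to 30057658 per library, and 14834 to 15722 genes had at least 1 count. Levels below are CPM, that is counts divided by the library total on the usual CPM scale and corrected by the trimmed mean of M-values (TMM), so that a CPM compares 1 gene across libraries. The sort genes followed the subset labels in both genotypes: WT cells had Cd44 at 14.8 ± 0.805 CPM (TN) and 142 ± 4.9 CPM (MP), while mCre cells had 14.6 ± 2.32 (TN) and 158 ± 7.86 (MP; SD, n = 2 per group). The CD8 coreceptor genes were high throughout, with Cd8a at 1572 to 1874 CPM and Cd8b1 at 1219 to 1388 CPM, whereas Cd4 had at most 9 counts in a library. Markers of other cells were low: the 5 B cell markers summed to 16.6 to 21.2 CPM and the 5 myeloid markers to at most 26.9 CPM. The 3 erythroid markers summed to 9.94 to 38.7 CPM. The 6 NK and innate lymphoid markers summed to 33.1 to 52.6 CPM in the TN libraries and 197 to 251 CPM in the MP libraries. Most of that sum was Eomes (30.9 to 50 CPM in TN and 183 to 225 in MP), a factor that memory-phenotype CD8+ cells express too. All 6 of these markers were called higher in MP in both genotypes by edgeR. Klre1 was at most 0.107 CPM in TN and 2.97 to 12.4 CPM in MP. Fcer1g was at 0.359 to 1.26 CPM in TN and 3.02 to 6.3 in MP, and Tyrobp rose by 1.23 in WT and 0.88 in mCre on the log2 scale. Klrb1c and Ncr1, which define NK cells, had 0 counts in the 4 TN libraries and reached 2.76 and 0.69 CPM in the highest MP library. Of the CD4 T cell markers, Zbtb7b was higher in MP (3.71 in WT and 2.82 in mCre) and Cd40lg lower (−2.33 and −2.20), while Foxp3 was lower in WT (−1.48) and not called in mCre (−0.52). Their list summed to 11.7 CPM in TN and 22.2 CPM in MP of WT (means of 2 libraries). Sox13, the gamma-delta T cell marker analysed here, was lower in MP, at 1.57 CPM in TN and 0.132 CPM in MP of WT.

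The 34 genes differed widely in level once divided by length. Per kilobase of summed exons, and averaged over the 8 libraries, the highest was the kinase gene Lck at 388 CPM per kb. It was followed by Cd3d, a CD3 chain, at 316 and by Dgka, which encodes a kinase that removes diacylglycerol, at 272. The 4 CD3 genes were not equal: Cd3g was at 180.3, Cd3e at 125 and Cd247, the zeta chain, at 53 CPM per kb. The lowest 3 were Ubash3a, a suppressor of receptor signalling, at 12.1, the NFAT factor gene Nfatc2 at 9.09 and the Ras exchange factor gene Sos1 at 6.57 CPM per kb. The order shifted when the longest transcript was used as the length, since Ptprc, which encodes the phosphatase CD45 and has 13 annotated transcripts, then moved from rank 4 to rank 1.

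**Figure D1:**
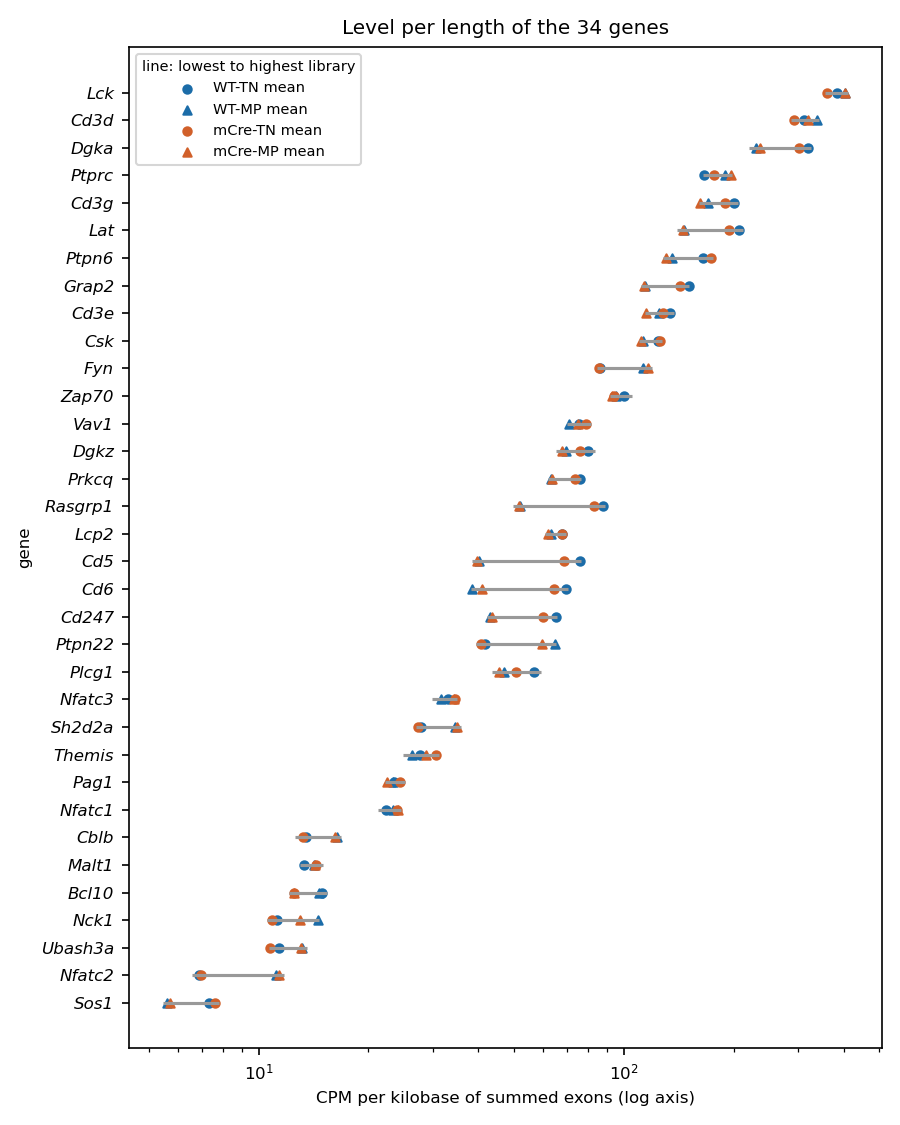
Level of each of the 34 genes as CPM per kilobase of summed exons, on a log axis; symbols are group means of 2 libraries, and the grey line runs from the lowest to the highest of the 8 libraries. Lck lies highest at 388 and Sos1 lowest at 6.57 CPM per kb, and the longest lines belong to Cd5, Cd6, Rasgrp1 and Nfatc2.

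MP cells of WT mice had less RNA than TN cells for the inhibitory receptors Cd5 and Cd6, for the zeta chain gene Cd247, for the adaptors Lat and Grap2 and for enzymes that act on diacylglycerol or Ras (Rasgrp1, Dgka, Sos1). They had more RNA for Nfatc2, the phosphatase gene Ptpn22 and the kinase gene Fyn. On the log2 scale these decreases ran from −0.38 (Sos1) to −0.92 (Cd5), and these increases from 0.39 (Fyn) to 0.70 (Nfatc2). With edgeR's quasi-likelihood test, at an adjusted p under 0.05, 14 of the 34 genes were lower and 8 were higher in WT-MP, and 12 were not called. Among all 12313 genes tested the same test called 31.7% (15.6% lower and 16.2% higher), and among the 3863 tested genes whose mean CPM was at least that of the lowest of the 34 it called 42.2%. The median log2 fold change of the 34 was −0.08, against a median of −0.00 over all genes tested, and the median of the absolute values was 0.25 against 0.19. The changes were modest in size: 7 of the 34 exceeded 0.5 on the log2 scale and none reached 1. In RNA from sorted cells in bulk, fewer cells of a type and less RNA per cell cannot be told apart. The NK, CD4 T cell and gamma-delta markers given above moved with the subset labels, and their part in these differences was not tested.

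In mCre mice the same comparison called 24 of the 34 genes, 15 lower and 9 higher in MP, against 32.5% of all genes tested (15.5% lower and 17% higher) and 42.6% of those at least as abundant as the lowest of the 34. The median log2 fold change was −0.11, against 0.00 over all genes tested. All 22 genes called in WT were called in the same direction in mCre (100% of the WT list and 91.7% of the mCre list), and 0 were called in opposite directions. The 2 called in mCre alone were Lck, at 0.16 in mCre and 0.07 in WT, and Cd3e, at −0.16 and −0.10. The 2 comparisons contrast different libraries but share the same fit, with its scaling, filter and estimate of spread. Their calls are therefore not independent. Across the 34 genes, which are not independent either, the 2 sets of log2 fold changes correlated with r = 0.981.

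**Figure D2:**
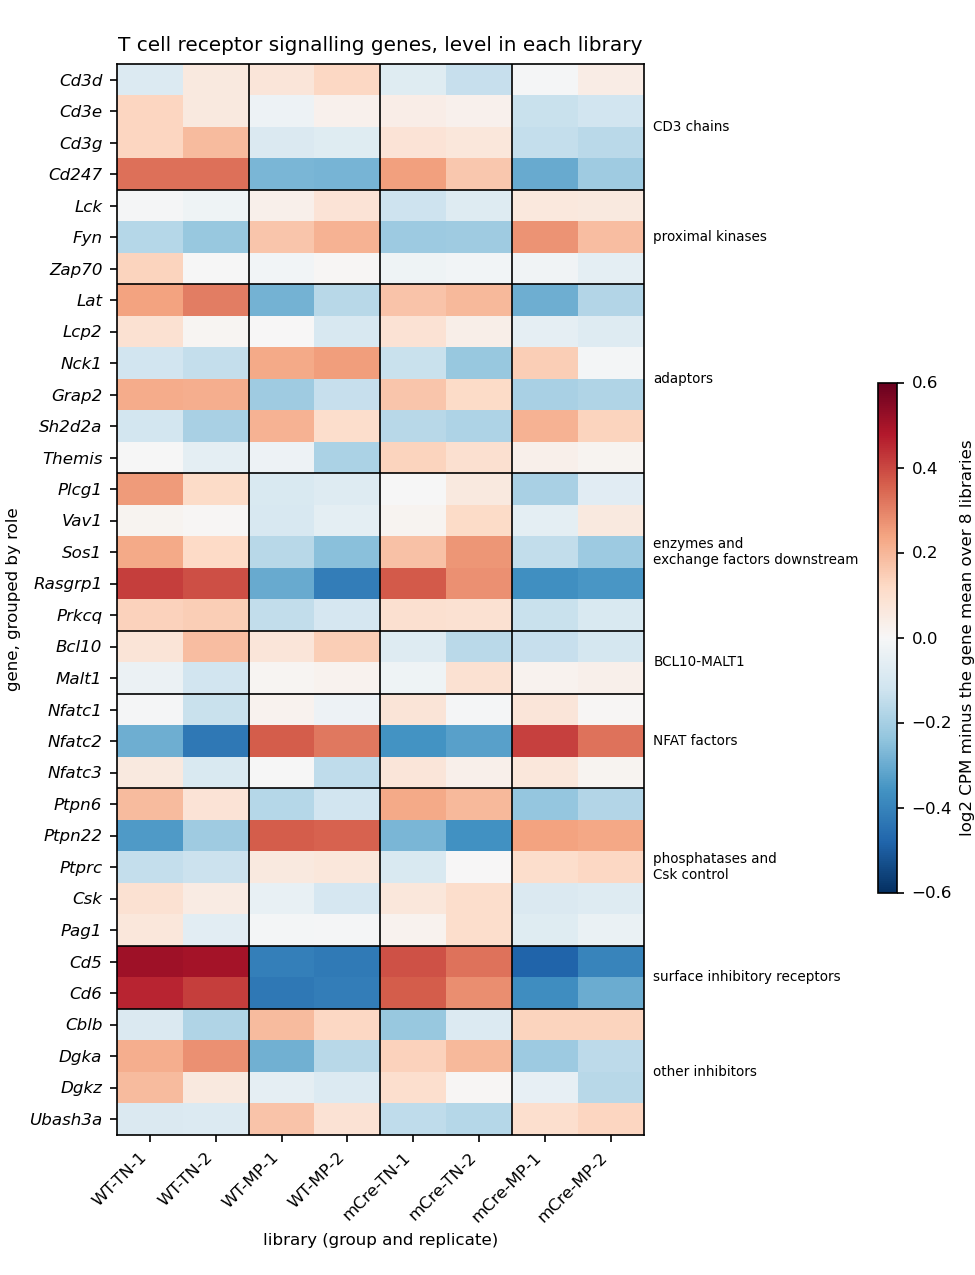
Level of each of the 34 genes in each of the 8 libraries, as log2 CPM minus the gene's mean over the 8 libraries (red, higher; blue, lower), with genes grouped by role. TN and MP libraries differ in the same direction in both genotypes for Cd5, Cd6, Rasgrp1, Cd247, Nfatc2 and Ptpn22, while Bcl10 is lower in the 4 mCre libraries than in the 4 WT libraries.

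The CD3 chains did not move together. Cd247 encodes the zeta chain, which carries most of the phosphorylation motifs of the receptor complex (chromosome 1, from 165788681 to 165877277 on the plus strand, GRCm38). It was at 349 and 348 CPM (WT) and 329 and 310.1 CPM (mCre) among TN libraries, and at 229 and 228 CPM (WT) and 225 and 239 CPM (mCre) among MP libraries. The TN and MP libraries stood apart in both genotypes, and the log2 fold change was −0.61 (SE 0.051, adjusted p = 1.49e-08) in WT and −0.46 (SE 0.05, adjusted p = 6.98e-07) in mCre. Exons of Pou2f1 on the opposite strand share 3007 bases with those of Cd247, and although the library kit keeps strand, whether counting used it is, in the sources used here, not given. Pou2f1 was at 55.8 to 82.2 CPM, and its log2 fold change was −0.13 (SE 0.11, adjusted p = 0.44) in WT and −0.36 (SE 0.1, adjusted p = 0.0261) in mCre. Cd3g was also lower in MP, at 615 to 670.1 CPM in the TN libraries and 525 to 558 CPM in the MP libraries, with log2 fold changes of −0.24 in WT and −0.23 in mCre. Cd3e passed in mCre (−0.16, SE 0.048, adjusted p = 0.0177) and did not pass in WT (−0.10, SE 0.048, adjusted p = 0.131). For Cd3d the values were 0.11 in WT and 0.12 in mCre, and neither passed (adjusted p = 0.125 and 0.0891). A fit of both genotypes together, with genotype as a covariate, called 26 of the 34 genes, 16 lower and 10 higher in MP. It called 45.3% of all genes (22.1% lower and 23.2% higher) and 56.6% of those at least as abundant. In that fit Cd3d was higher in MP (0.12, SE 0.037, adjusted p = 0.0136) while Cd3e, Cd3g and Cd247 were lower.

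Of the 3 proximal kinases, Fyn, an SRC-family kinase with a role that overlaps that of LCK, was higher in MP. Fyn (chromosome 10, from 39368855 to 39565381 on the plus strand) was at 384 and 369.6 CPM (WT) and 372 and 374 CPM (mCre) among TN libraries, and at 487 and 501 CPM (WT) and 522 and 493 CPM (mCre) among MP libraries. Each MP library exceeded each TN library, and the log2 fold change was 0.39 (SE 0.049, adjusted p = 4.29e-06) in WT and 0.44 (SE 0.049, adjusted p = 7.64e-07) in mCre. Lck, the SRC-family kinase bound to the CD8 coreceptor, was at 1131 and 1115 CPM (WT) and 1042 and 1076 CPM (mCre) among TN libraries, and at 1159 and 1203 CPM (WT) and 1185 and 1185 CPM (mCre) among MP libraries. Its MP libraries lay above its TN libraries within each genotype by a small margin, and the difference passed in mCre (0.16, SE 0.046, adjusted p = 0.0101) and not in WT (0.07, SE 0.046, adjusted p = 0.246). Zap70 lay at 275 to 315 CPM over the 8 libraries and passed in neither genotype, with 95% intervals of the log2 difference of −0.18 to 0.04 in WT and −0.13 to 0.09 in mCre.

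The 6 adaptors split, with 2 lower, 2 higher and 2 not called in either genotype. The share called was 66.7% in each genotype, beside 31.7% (WT) and 32.5% (mCre) of all genes tested. Lat, the membrane scaffold phosphorylated by ZAP-70 (chromosome 7, from 126363824 to 126369570 on the minus strand), was at 559.6 and 586 CPM (WT) and 532 and 540.5 CPM (mCre) among TN libraries, and at 389 and 421 CPM (WT) and 386 and 419 CPM (mCre) among MP libraries. No MP library reached a TN library, and the log2 fold change was −0.50 (SE 0.054, adjusted p = 5.88e-07) in WT and −0.41 (SE 0.054, adjusted p = 6.76e-06) in mCre. Grap2 encodes GADS, which joins LAT to SLP-76 (chromosome 15, from 80572594 to 80652854 on the plus strand). It was at 943 and 938 CPM (WT) and 906 and 875 CPM (mCre) among TN libraries, and at 697 and 734 CPM (WT) and 706 and 712 CPM (mCre) among MP libraries. The separation was as complete as for Lat, and the log2 fold change was −0.39 (SE 0.047, adjusted p = 2.08e-06) in WT and −0.33 (SE 0.047, adjusted p = 1.95e-05) in mCre. SLP-76, the adaptor that GADS joins to LAT, is encoded by Lcp2, whose values of −0.10 in WT and −0.13 in mCre did not pass. Sh2d2a, the T cell-specific adaptor TSAd that binds LCK, rose, and it was at 170.5 and 161 CPM (WT) and 164 and 162 CPM (mCre) among TN libraries, and at 213 and 198 CPM (WT) and 213 and 202 CPM (mCre) among MP libraries. The MP libraries were the higher ones in both genotypes, and the log2 fold change was 0.31 (SE 0.054, adjusted p = 0.000166) in WT and 0.35 (SE 0.054, adjusted p = 4.25e-05) in mCre. Nck1, which links the receptor to the actin cytoskeleton, was at 54.5 and 53.4 CPM (WT) and 53.8 and 50.4 CPM (mCre) among TN libraries, and at 69.1 and 70.3 CPM (WT) and 65.5 and 58.6 CPM (mCre) among MP libraries. Here the mCre-MP libraries lay between those of WT-MP and the TN groups, and the log2 fold change was 0.37 (SE 0.067, adjusted p = 0.000256) in WT and 0.25 (SE 0.066, adjusted p = 0.00708) in mCre. Themis, which tunes the phosphatase SHP-1 during thymic selection, did not pass in either genotype (−0.08 and −0.09).

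Enzymes and exchange factors downstream of LAT were lower in MP in 4 of 5 cases and higher in 0, in both genotypes. Of all genes tested, 15.6% were lower in MP in WT and 15.5% in mCre. Rasgrp1, the diacylglycerol-dependent activator of Ras in T cells (chromosome 2, from 117279993 to 117343001 on the minus strand), was at 497 and 486 CPM (WT) and 481 and 449.7 CPM (mCre) among TN libraries, and at 302 and 279 CPM (WT) and 288 and 292 CPM (mCre) among MP libraries. The lowest TN library was far above the highest MP library, and the log2 fold change was −0.76 (SE 0.053, adjusted p = 1.12e-09) in WT and −0.68 (SE 0.053, adjusted p = 5.01e-09) in mCre. Sos1, the other kind of Ras exchange factor among the 34, was at 80.6 and 74.8 CPM (WT) and 77.9 and 82.7 CPM (mCre) among TN libraries, and at 61.3 and 58 CPM (WT) and 62.3 and 59.2 CPM (mCre) among MP libraries. It is the least abundant of the 34 per length, yet the groups did not overlap, and the log2 fold change was −0.38 (SE 0.063, adjusted p = 9.86e-05) in WT and −0.40 (SE 0.061, adjusted p = 3.76e-05) in mCre. Prkcq, the protein kinase C isoform of the T cell synapse, was at 519 to 539.5 CPM in TN and 440.0 to 458 CPM in MP, and had log2 fold changes of −0.27 and −0.21 in WT and mCre. Plcg1, the phospholipase that makes diacylglycerol and inositol trisphosphate, had −0.27 (SE 0.057, adjusted p = 0.00102) in WT and −0.16 (SE 0.057, adjusted p = 0.0404) in mCre. Exons of Zhx3 on the opposite strand share 379 bases with Plcg1, and Zhx3, at 27.6 to 46.3 CPM, was lower in MP as well (−0.57 and −0.59). Vav1, an exchange factor that acts on the actin cytoskeleton, was not called in either genotype, at −0.09 and −0.06.

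Bcl10 and Malt1, whose proteins form a complex that leads to NF-kB, did not differ between subsets beyond the spread. The 95% intervals of the log2 difference were −0.16 to 0.10 in WT and −0.14 to 0.12 in mCre for Bcl10, and −0.02 to 0.20 and −0.12 to 0.10 for Malt1. Of the 3 NFAT factors only Nfatc2, which encodes the NFAT1 protein present in resting T cells (chromosome 2, from 168476410 to 168601657 on the minus strand), passed in either genotype. It was at 76 and 69.3 CPM (WT) and 72.6 and 74.3 CPM (mCre) among TN libraries, and at 119.8 and 116 CPM (WT) and 124 and 117 CPM (mCre) among MP libraries. This was the largest increase among the 34 in both genotypes, with no overlap between TN and MP, and the log2 fold change was 0.70 (SE 0.058, adjusted p = 1.22e-08) in WT and 0.71 (SE 0.056, adjusted p = 6.51e-09) in mCre. Nfatc1 stayed within 159 to 184 CPM and Nfatc3 within 351 to 411 CPM over the 8 libraries.

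**Figure D3:**
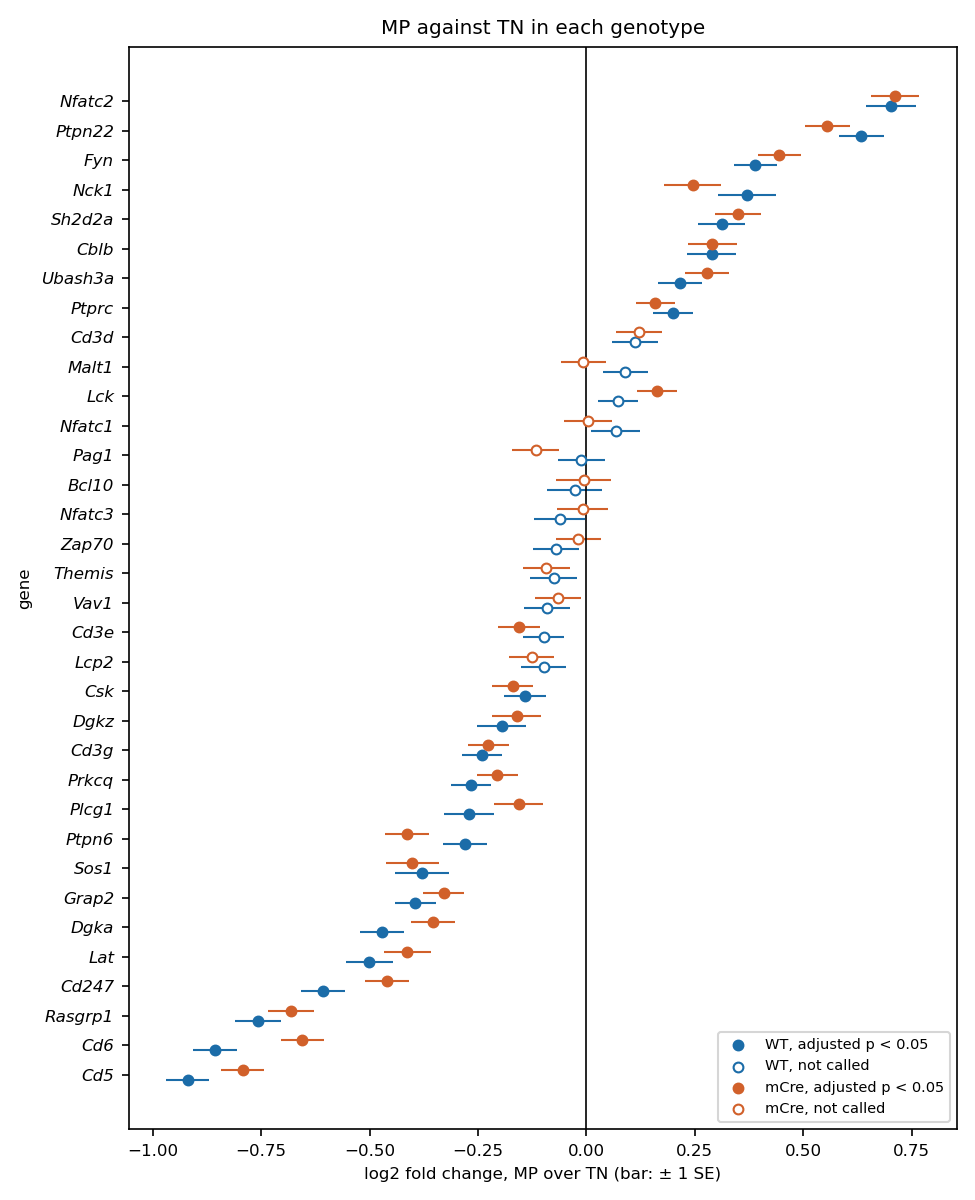
Log2 fold change of MP over TN for each of the 34 genes in WT (blue) and mCre (orange), with bars of 1 SE; filled points passed an adjusted p under 0.05. Cd5, at −0.92 in WT and −0.79 in mCre, lies lowest and Nfatc2, at 0.70 and 0.71, highest, and no gene is called in opposite directions.

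The inhibitors did not share a direction. The surface receptors Cd5 and Cd6 had the 2 largest decreases in WT-MP. They are neighbouring genes of the scavenger receptor family on chromosome 19, and both dampen receptor signalling. Cd5 (chromosome 19, from 10717116 to 10739002 on the minus strand) was at 376 and 373 CPM (WT) and 345 and 331 CPM (mCre) among TN libraries, and at 199 and 197 CPM (WT) and 189.5 and 201 CPM (mCre) among MP libraries. The TN libraries were the high ones in both genotypes, with no overlap, and the log2 fold change was −0.92 (SE 0.05, adjusted p = 2.54e-11) in WT and −0.79 (SE 0.049, adjusted p = 2.26e-10) in mCre. Cd6 (chromosome 19, from 10789341 to 10830058 on the minus strand) was at 562 and 546 CPM (WT) and 527 and 498 CPM (mCre) among TN libraries, and at 304 and 308 CPM (WT) and 317 and 334 CPM (mCre) among MP libraries. No MP library reached a TN library here either, and the log2 fold change was −0.86 (SE 0.05, adjusted p = 8.84e-11) in WT and −0.66 (SE 0.05, adjusted p = 4.38e-09) in mCre.

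Phosphatases and the control of CSK went both ways. Ptpn22, the phosphatase that binds CSK and dephosphorylates SRC-family kinases (chromosome 3, from 103859795 to 103912247 on the plus strand), was at 271 and 295 CPM (WT) and 283 and 267 CPM (mCre) among TN libraries, and at 441 and 438 CPM (WT) and 405 and 403 CPM (mCre) among MP libraries. The MP libraries exceeded the TN libraries without overlap, and the log2 fold change was 0.63 (SE 0.053, adjusted p = 1.41e-08) in WT and 0.56 (SE 0.052, adjusted p = 8.74e-08) in mCre. Ptpn6, the phosphatase SHP-1, went the other way and was at 480.1 and 446 CPM (WT) and 492 and 482 CPM (mCre) among TN libraries, and at 374 and 388 CPM (WT) and 358 and 373 CPM (mCre) among MP libraries. The MP libraries were the low ones in both genotypes, and the log2 fold change was −0.28 (SE 0.051, adjusted p = 0.000286) in WT and −0.41 (SE 0.051, adjusted p = 3.2e-06) in mCre. Exons of an opposite-strand gene, Gm20531, share 195 bases with Ptpn6. Ptprc, the phosphatase CD45, which removes the inhibitory phosphate from LCK, was at 3016 and 3044 CPM (WT) and 3124 and 3332 CPM (mCre) among TN libraries, and at 3466 and 3490.4 CPM (WT) and 3577 and 3630.2 CPM (mCre) among MP libraries. Its rise was small, and the log2 fold change was 0.20 (SE 0.046, adjusted p = 0.00226) in WT and 0.16 (SE 0.046, adjusted p = 0.0112) in mCre. Csk, the kinase that adds that phosphate, had −0.14 (SE 0.048, adjusted p = 0.0297) in WT and −0.17 (SE 0.048, adjusted p = 0.00964) in mCre. Pag1, the membrane anchor of CSK, was not called in either genotype.

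Among the remaining inhibitors, the diacylglycerol kinase genes fell and Cblb and Ubash3a rose. Dgka, which ends diacylglycerol signals and is abundant in resting T cells (chromosome 10, from 128720134 to 128744855 on the minus strand), was at 1491 and 1553 CPM (WT) and 1413 and 1466 CPM (mCre) among TN libraries, and at 1052 and 1143 CPM (WT) and 1104 and 1150.3 CPM (mCre) among MP libraries. All MP libraries were below all TN libraries, and the log2 fold change was −0.47 (SE 0.051, adjusted p = 5.32e-07) in WT and −0.35 (SE 0.051, adjusted p = 2.03e-05) in mCre. Exons of Pmel on the other strand share 105 bases with Dgka, and Pmel, at 18.3 to 36.7 CPM, was lower in MP as well (−0.86 and −0.67). Dgkz, the zeta isoform, fell, with −0.20 (SE 0.057, adjusted p = 0.012) in WT and −0.16 (SE 0.056, adjusted p = 0.0346) in mCre. Cblb, a ubiquitin ligase that sets the threshold of activation, was at 146 and 137 CPM (WT) and 132 and 146 CPM (mCre) among TN libraries, and at 176 and 168 CPM (WT) and 169.7 and 169 CPM (mCre) among MP libraries. The subsets did not overlap, and the log2 fold change was 0.29 (SE 0.057, adjusted p = 0.00062) in WT and 0.29 (SE 0.057, adjusted p = 0.000518) in mCre. Ubash3a, the ubiquitin-binding suppressor STS-2, was at 128 and 128 CPM (WT) and 122 and 120.1 CPM (mCre) among TN libraries, and at 153 and 144 CPM (WT) and 145 and 148 CPM (mCre) among MP libraries. Here too MP was higher in both genotypes, and the log2 fold change was 0.21 (SE 0.051, adjusted p = 0.003) in WT and 0.28 (SE 0.05, adjusted p = 0.000253) in mCre.

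Several of the smaller calls were lost when 1 library was left out. In WT, Dgkz was no longer called by edgeR without WT-TN replicate 1 (adjusted p = 0.18) or WT-MP replicate 2 (0.0862), and Csk passed only without WT-TN replicate 2, with adjusted p of 0.0523 to 0.238 in the other 7 fits. In mCre, Cd3e lost its call without any 1 of the 4 mCre libraries (0.0604 to 0.111). Lck and Ptprc lost theirs without mCre-TN replicate 1, mCre-MP replicate 1 or mCre-MP replicate 2 (0.0642 to 0.0937 for Lck, 0.0523 to 0.154 for Ptprc). Plcg1 lost its call without mCre-TN replicate 1, mCre-TN replicate 2 or mCre-MP replicate 1 (0.0713 to 0.365). Csk (0.0666 and 0.0721) and Nck1 (0.14 and 0.0717) did so without mCre-MP replicate 1 or mCre-TN replicate 2, and Dgkz without mCre-TN replicate 1 (0.291) or mCre-MP replicate 2 (0.289). The folds among these that shrank by over 1.5 times were Dgkz in WT, from −0.20 to −0.12 without WT-TN replicate 1, and Plcg1 in mCre, from −0.16 to −0.10 without mCre-MP replicate 1. The other 20 genes called in WT and the other 17 in mCre passed in each of the 8 fits with 1 library left out.

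**Figure D4:**
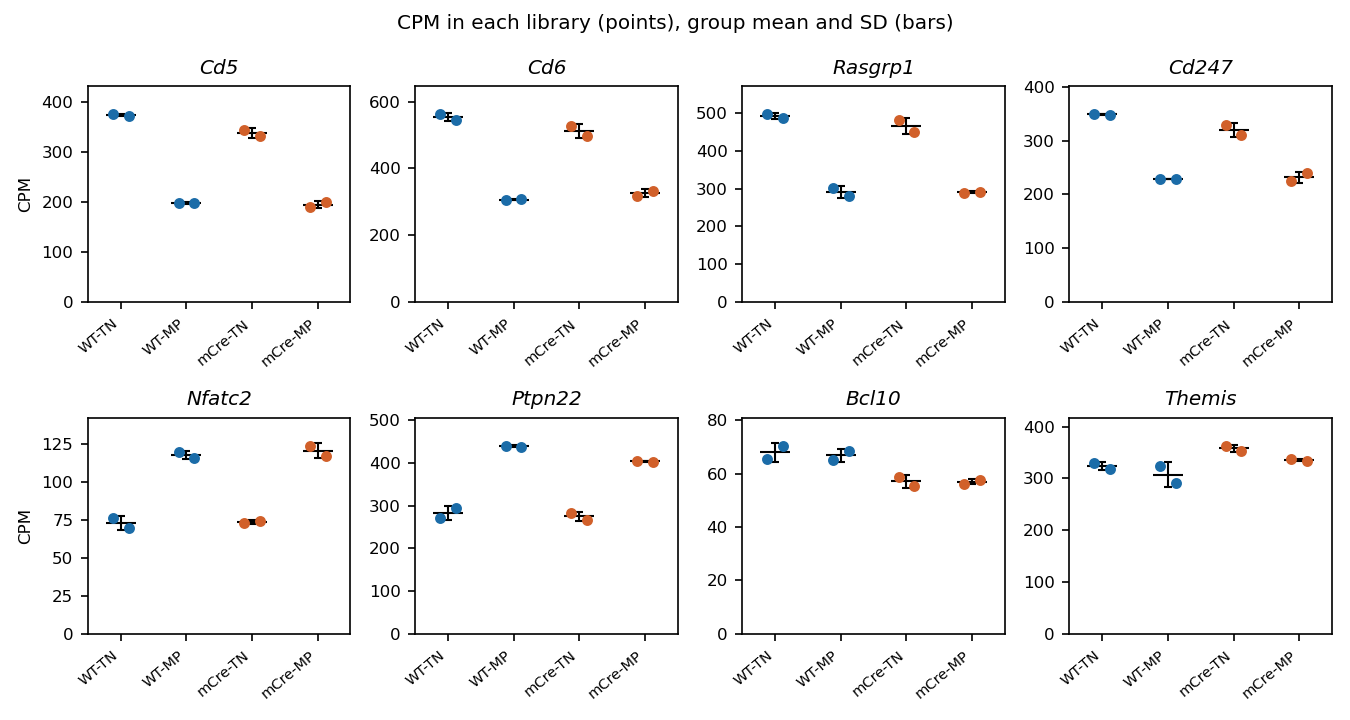
CPM of 8 of the 34 genes in each library (points; blue, WT; orange, mCre), with the group mean and SD as bars, n = 2 per group, and axes that start at 0. The first 6 panels separate TN from MP in both genotypes, whereas Bcl10 and Themis separate WT from mCre in both subsets.

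Further genes of the pathway were called in both directions between subsets. They are counted by list, and the lists were chosen with earlier results of these data known. The shares below stand beside 31.7% (WT) and 32.5% (mCre) of all genes tested, and 42.2% and 42.6% of those at least as abundant as the lowest of the 34. Of 35 other negative regulators, 12 were higher and 8 lower in WT-MP, and 16 and 9 in mCre-MP (57.1% and 71.4% called), with a median log2 fold change of 0.09 in WT and 0.14 in mCre. Spry2, an inhibitor of Ras signalling, had the largest value, 5.72 in WT and 4.84 in mCre. It had 2 and 8 counts in the WT-TN libraries, so the fitted fold depends on the prior count. WT cells went from 0.289 ± 0.199 CPM (TN) to 16.6 ± 1.56 CPM (MP; SD, n = 2 per group). The adaptor Lax1 rose by 0.89 and 1.03, and Dusp5, a phosphatase of MAP kinases, by 1.06 and 1.26. Of 12 coreceptors, costimulatory receptors and Tec kinases, 5 were higher and 2 lower in each genotype (58.3%). Cd28 rose by 0.66 and 0.52, the kinase genes Txk by 0.53 and 0.46 and Tec by 0.55 and 0.68, and Slamf6 had −0.81 and −0.60.

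In the calcium arm 5 of 20 genes were higher and 7 lower in WT-MP, and 5 and 5 in mCre-MP (60% and 50% called). The calcineurin catalytic subunit gene Ppp3cc (0.64 and 0.66), Calm2, a calmodulin gene (0.59 and 0.50), and the calcium sensor gene Stim2 (0.55 and 0.65) were higher. The calcium channel gene Orai2 was lower (−0.45 and −0.41). In the Ras-MAPK cascade, 3 of 21 genes were higher and 5 lower in WT, and 3 and 6 in mCre, or 38.1% and 42.9%, near the share of abundant genes. Sos2, the relative of Sos1, was higher in MP (0.49 and 0.23) while Sos1 was lower, as given above. In the NF-kB arm 4 of 15 were higher and 1 lower in WT, and 7 and 0 in mCre (33.3% and 46.7%), with Nfkb2 at 0.23 and 0.41. Of 21 PI3K and cytoskeleton genes, 7 were higher and 4 lower in WT, and 8 and 1 in mCre (52.4% and 42.9%). Pik3r5, a regulatory subunit of PI3K gamma, rose by 0.74 and 0.76, and Inpp5d, the lipid phosphatase SHIP-1, by 0.39 and 0.48.

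Whether the subset difference itself depended on genotype was tested as the interaction of the 2 factors. With edgeR 0 of the 34 genes were called, and with DESeq2 0. EdgeR called 0.13% of all genes tested (0.0812% lower and 0.0487% higher), and 0.155% of those at least as abundant as the lowest of the 34. Of the 34, 1 (Cd6) was at an unadjusted edgeR p under 0.05, a threshold whose share of all genes is not given here. The 2 smallest p-values were those of Cd6, whose fall was smaller in mCre by 0.20 (SE 0.071, adjusted p = 0.682) on the log2 scale, and of Cd247, at 0.15 (SE 0.071, adjusted p = 0.842). The 95% intervals of the 34 differences between differences ran from −0.32 to 0.35 at their outer bounds, which is the size of change that these libraries leave possible.

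Between genotypes the share of the 34 genes called (2.94% in each subset) was near that of all genes tested. In TN cells 1 gene was called, Bcl10, lower in mCre, and 0 were higher, with 33 not called. Of all genes tested 3.47% were called (1.92% lower and 1.55% higher), and 5.38% of those at least as abundant as the lowest of the 34. In MP cells it was again Bcl10, lower, as the 1 gene called of 34. Of all genes 4.04% were called (1.97% lower and 2.08% higher), and 5.95% of those at least as abundant. The largest absolute log2 fold change was 0.25 in TN and 0.23 in MP, both those of Bcl10. The medians were −0.05 and −0.01, beside −0.00 and 0.00 over all genes. At an unadjusted edgeR p under 0.05, 5 of the 34 were lower and 1 higher in mCre-TN, and 4 lower and 1 higher in mCre-MP. The share of all genes at that threshold is not given here, so these counts have no background beside them. Bcl10 (lower) and Themis (higher) were the 2 found in both subsets. Cd5 (−0.15, adjusted p = 0.113) and Plcg1 (−0.16, adjusted p = 0.14) came next in TN by size of p, and Nck1 (−0.17, adjusted p = 0.164) in MP. The 95% intervals reached at most from −0.38 to 0.26 in TN and from −0.36 to 0.24 in MP over the 34 genes.

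BCL10 is the adaptor that polymerises and recruits MALT1 (chromosome 3, from 145922804 to 145934356 on the plus strand). Its gene was at 65.5 and 70.5 CPM (WT) and 58.8 and 55.4 CPM (mCre) among TN libraries, and at 65.1 and 68.5 CPM (WT) and 56.3 and 57.5 CPM (mCre) among MP libraries. The 4 mCre libraries, at 55.4 to 58.8 CPM, all lay below the 4 WT libraries, at 65.1 to 70.5 CPM. The log2 fold change was −0.25 (SE 0.063, adjusted p = 0.0313) in TN and −0.23 (SE 0.062, adjusted p = 0.0423) in MP, both by edgeR. With subset as a covariate, and thus 4 libraries against 4, it was −0.24 (SE 0.044, adjusted p = 0.000943). This fit takes the TN and MP libraries as independent. If some came from the same animals, which is not given, its adjusted p may be too small. The separate calls were near the threshold. With DESeq2 the adjusted p was 0.0848 in TN and 0.118 in MP. The TN call was lost without WT-TN replicate 2 (adjusted p = 0.245), mCre-TN replicate 1 (0.0641) or mCre-TN replicate 2 (0.229). The MP call was lost without any 1 of the 4 MP libraries, with adjusted p between 0.0779 and 0.291. The fit across subsets kept its call in each of the 8 fits with 1 library left out, with adjusted p between 0.000961 and 0.00535.

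That fit across subsets, with the same limit, called 2 of the 34 genes, 1 lower and 1 higher. Of all genes tested it called 11% (5.97% lower and 5.06% higher), and 16.4% of those at least as abundant as the lowest of the 34. Beside Bcl10 it called Themis (chromosome 10, from 28668360 to 28883818 on the plus strand), which was at 329.7 and 318 CPM (WT) and 363 and 353 CPM (mCre) among TN libraries, and at 324 and 290.3 CPM (WT) and 338 and 335 CPM (mCre) among MP libraries. The 4 mCre libraries all lay above the 4 WT libraries. The log2 fold change was 0.14 (SE 0.038, adjusted p = 0.0207) across subsets, 0.15 (SE 0.054, adjusted p = 0.156) in TN and 0.13 (SE 0.054, adjusted p = 0.212) in MP. The call across subsets was lost without WT-TN replicate 2 (adjusted p = 0.0641), WT-MP replicate 2 (0.112), mCre-TN replicate 1 (0.0583) or mCre-MP replicate 1 (0.0593). Malt1, the partner of Bcl10, had 0.06 (SE 0.038, adjusted p = 0.365) across subsets. The CD3 genes were at −0.09 (Cd3d), −0.09 (Cd3e), −0.08 (Cd3g) and −0.05 (Cd247), and none of the 4 passed (smallest adjusted p = 0.0953, Cd3e). Cd5 RNA was at −0.09 (95% interval −0.16 to −0.01) and did not pass. CD5 protein was not analysed here, so this value is not a measure of self recognition.

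**Figure D5:**
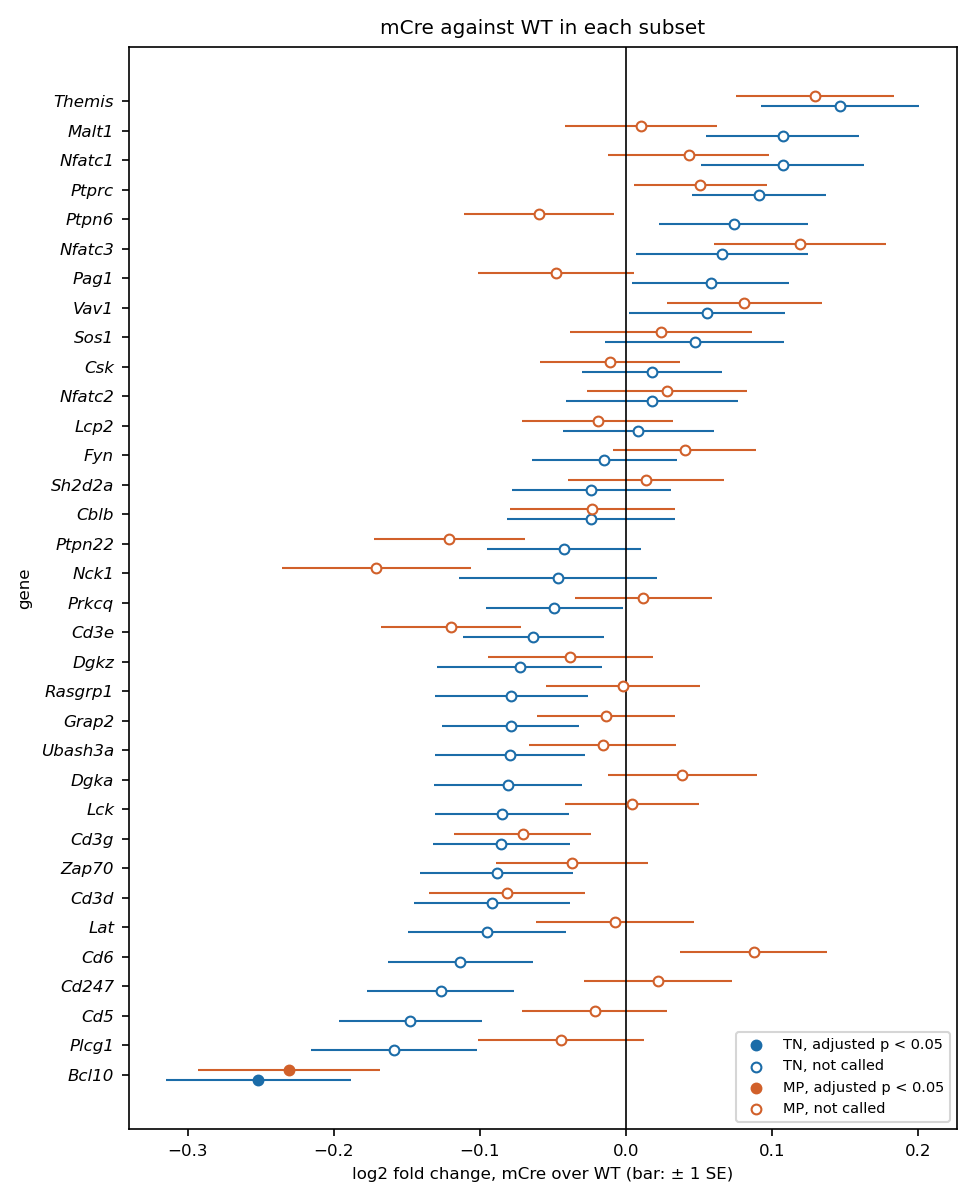
Log2 fold change of mCre over WT for each of the 34 genes in TN (blue) and MP (orange), with bars of 1 SE; filled points passed an adjusted p under 0.05. Bcl10 is the only filled gene, at −0.25 in TN and −0.23 in MP, and Themis lies highest, at 0.15 and 0.13.

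Because the series title names miR-29, the 34 genes were searched for sites of that microRNA family. MicroRNAs bind messenger RNAs mainly by pairing of their seed, bases 2 to 8, with the 3' untranslated region. The mature sequences (RefSeq, GRCm38.p6) are shown because all 3 share 1 seed, given in capitals. In that build miR-29a-3p lies at chr6:31062673-31062694 and 1 copy of miR-29b-3p at chr6:31063025-31063047, both on the minus strand. The other copy of miR-29b-3p lies at chr1:195037091-195037113 and miR-29c-3p at chr1:195037600-195037621, both on the plus strand.
miR-29a-3p: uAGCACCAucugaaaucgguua
miR-29b-3p: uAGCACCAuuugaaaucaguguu
miR-29c-3p: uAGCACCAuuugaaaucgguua

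The sequence that pairs with this seed, TGGTGCT on the transcript strand, was present in the longest annotated 3' untranslated region of 6 of the 34 genes (17.6%) and of 1798 of 11648 tested genes (15.4%). The 6 were Grap2, Rasgrp1, Pag1 and the 3 NFAT genes, and Nfatc3 had 2 matches. Bcl10 and Themis had 0 matches. In none of the 7 matches was the seed match followed by the A that often strengthens such a site. The matches outside Nfatc1 are shown (GENCODE M21, GRCm38) with their flanks, 5' to 3' on the transcript strand, match in capitals, so that the stretches counted can be seen.
Grap2, chr15:80650730-80650736, plus strand: cagcctgtatcTGGTGCTcatgctgcaca
Rasgrp1, chr2:117280874-117280880, minus strand: tgaactgtacaTGGTGCTgccccctaaag
Nfatc2, chr2:168476854-168476860, minus strand: tgggccaggagTGGTGCTtccctgagcag
Nfatc3, chr8:106129132-106129138, plus strand: caaagacatggTGGTGCTgctgctgctgc
Nfatc3, chr8:106130212-106130218, plus strand: gggttcacacgTGGTGCTgctgccctggg
Pag1, chr3:9689155-9689161, minus strand: tactgtgtggcTGGTGCTcttgttttcgt

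None of these 6 genes passed between genotypes. In mCre against WT across subsets, Grap2 was at −0.05 (95% interval −0.12 to 0.02) and Rasgrp1 at −0.04 (−0.12 to 0.04). Pag1 was at 0.00 (−0.08 to 0.09). Nfatc1, Nfatc2 and Nfatc3 were at 0.07, 0.02 and 0.09, with intervals of −0.01 to 0.16, −0.06 to 0.11 and 0.01 to 0.18. Nfatc3, with 2 matches, was at 407 and 367 CPM (WT) and 411 and 399 CPM (mCre) among TN libraries, and at 389.9 and 351 CPM (WT) and 409 and 395 CPM (mCre) among MP libraries. Its mCre libraries exceeded its WT libraries in MP without overlap, while in TN the ranges overlapped, and its difference across subsets did not pass (adjusted p = 0.162, edgeR). A match describes the sequence only, and mature miR-29 was not analysed here.

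A few other genes of the pathway differed between genotypes, beside 3.47% of all genes called in TN, 4.04% in MP and 11% across subsets. Of the 35 other negative regulators, 2 were higher and 1 lower in mCre-TN, 3 and 2 in mCre-MP, and 5 and 4 across subsets (8.57%, 14.3% and 25.7% called). Pik3ip1, an inhibitor of PI3K that restrains T cell activation, was at 189.6 and 189 CPM (WT) and 235 and 239 CPM (mCre) among TN libraries, and at 127 and 128 CPM (WT) and 168 and 192 CPM (mCre) among MP libraries. It was higher in mCre in both subsets, by 0.32 (SE 0.057, adjusted p = 0.00261) in TN and 0.49 (SE 0.057, adjusted p = 4.56e-05) in MP. Rasa3, which inactivates Ras and Rap, rose by 0.23 in TN and 0.27 in MP, and the inhibitory receptor gene Btla by 0.31 in MP. Lax1 was lower in TN (−0.20), and Cd160 (−0.43) and Spry2 (−0.82) were lower in MP.

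In the NF-kB arm, where Bcl10 acts, 0 of 15 genes were called in TN by edgeR. In MP 3 were higher and 0 lower in mCre: Relb (0.30, SE 0.075, adjusted p = 0.0288), Casp8 (0.19) and Nfkb2 (0.21). Across subsets 3 were higher and 0 lower, and the share called was 20% both there and in MP. Of 12 coreceptors, costimulatory receptors and Tec kinases, Tec was lower in TN (−0.27, 8.33% called). In MP Slamf6 was higher (0.33) and Cd226 (−0.21) and Cd28 (−0.22) were lower (25%). Across subsets 1 of them was higher and 3 were lower (33.3%). Of the 21 Ras-MAPK genes, Mapk14, the p38 alpha kinase, was lower in MP (−0.22) and 0 were called in TN. For this list 0 were higher and 2 lower across subsets (9.52%). Of the 20 calcium genes 0 were called in either subset, and 3 were higher and 3 lower across subsets (30%), among them Plcg2 (0.41) and Stim1 (−0.12). Of the 21 PI3K and cytoskeleton genes 0 were called in either subset, with 1 higher (Akt2, 0.17) and 1 lower (Inpp5d, −0.13) across subsets (9.52%). The sums of 3 marker lists of other cells moved with genotype. The NK and innate lymphoid markers summed to 45.7 and 52.6 CPM in WT against 33.1 and 39.5 CPM in mCre among TN libraries, and to 236 and 251 CPM against 197 and 216 CPM among MP libraries. All 6 had a negative difference in MP and across subsets, and 1 was called lower, Klre1 (−1.58, SE 0.24, adjusted p = 0.000618 in MP; −1.57 across subsets). In TN cells the myeloid markers summed to 20.1 and 25.5 CPM in WT and to at most 17.6 CPM in mCre, and the erythroid markers to 16.8 and 17.7 CPM in WT and to 20.9 and 38.7 CPM in mCre. Across subsets 2 of the 5 myeloid markers were called lower in mCre and 0 higher: Csf1r (−1.32) and Adgre1 (−1.16). Csf1r was also called in TN (−1.45). Of the 3 erythroid markers 2 were called higher across subsets and 0 lower: Alas2 (0.91) and Hba-a1 (0.60). The part of these markers in the genotype differences was not tested.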

How the data were processed

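The 34 genes and the other gene lists were chosen with earlier results of these data known. The deposited table holds the authors' raw read counts per gene symbol for the 8 libraries. Per the submitters' processing notes, Trim Galore, HISAT2, featureCounts and the mm10 build were used, in versions not given in the sources used here. Groups came from the sample titles. Counts were analysed with edgeR 4.0.16 (R 4.3.3): TMM scaling, edgeR's default expression filter and 1 robust quasi-likelihood fit of 4 group means over all 8 libraries, so that each comparison shares 1 estimate of spread. The tests across subsets or genotypes used additive fits that took all 8 libraries as independent. P-values were two-sided and Benjamini-Hochberg adjusted over the 12313 genes that passed the filter; calls needed an adjusted p under 0.05. SE was the absolute log2 fold change divided by the square root of the F statistic, and intervals used the fit's degrees of freedom. Log2 fold changes carry edgeR's default prior count. A prior count of 2 was used for the log2 CPM behind the deviations of replicates from group means. Scripts were tested on simulated data.

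All 34 genes are accounted for. Values in each library are given, among called genes whose libraries do not overlap, for at most the 8 largest subset changes in each direction and for all genotype calls; the rest are given by ranges or fold changes. From each further list, up to 4 called genes of smallest p per comparison are named; 2 genes of these lists are not reported here and are left out of the lists' counts. Lengths, loci, overlapping exons and 3' untranslated regions came from GENCODE M21 (GRCm38, the same assembly as mm10) and microRNAs from RefSeq. A 7-base seed match was sought in untranslated regions of at least 30 bases. Constant-region genes of the T cell receptor were not analysed here. Alternatives covered scaling, expression filters, DESeq2 1.42.0, a replicate block, fits of the compared groups alone, each library left out, and transcript length. Having 2 libraries per group limits the precision. At a depth of 13479586 to 30057658 counts, squared deviations between the libraries of a group averaged 4.2 to 6.26 times those of counting alone.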

Additional observations from a re-analysis of the deposited data

How the results depend on the processing

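No called gene of the 34 changed direction in its comparison under the other settings run or the 8 fits with 1 library left out. There were 7 other settings for comparisons of 2 groups and 6 for the interaction and the fits across subsets or genotypes, where fitting the compared groups alone does not apply. Of 34, edgeR called 22 in MP against TN in WT (20 to 23 with a library left out) and 24 in mCre (18 to 25). In mCre against WT it called 1 in TN and 1 in MP (0 to 1 with a library left out in each), and DESeq2 called 0 in both. Across subsets 2 were called, with 1 to 4 when a library was left out: 4 without WT-TN replicate 1 and 1 without WT-MP replicate 2, mCre-TN replicate 1 or mCre-MP replicate 1. MP against TN across genotypes called 26 (25 to 27; Lcp2 was lost without WT-TN replicate 1, WT-MP replicate 2 or mCre-TN replicate 1, at adjusted p of 0.0539 to 0.0741). The cause of these changes was not tested. The call of Csk in WT was lost with no expression filter (adjusted p = 0.0853) and when the WT groups were fitted alone (0.068). The median level of the 34 genes was 60.6 CPM per kb of summed exons and 93.0 per kb of the longest transcript, which is the shorter length.

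With the replicate number as a block, 22 genes were called in WT, 25 in mCre, 1 in TN, 1 in MP, 0 for the interaction, 2 across subsets and 26 across genotypes. Libraries with the same number shared little. Their deviations from the group means correlated at 0.109 (WT) and 0.077 (mCre) between TN and MP. Across genotypes the correlations were −0.045 to −0.014. The number was therefore not taken as a pairing. The block was common to both genotypes and cannot model a pairing of TN with MP within a genotype. With 2 libraries per group, 95% intervals of the genotype differences were up to 0.14 wide on each side, and differences of that size may have been missed. Calls rested on the adjusted p and not on the interval. Cd5 in TN, at −0.25 to −0.045, was not called (adjusted p = 0.113, edgeR). The interaction called 0 of the 34 genes under those 6 settings and with each library left out.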
